A study of Mus musculus with 2 samples.

Results

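Cell cycle genes were followed in single cells of the medullary epithelium of the mouse thymus (mTECs), which shows antigens of other organs to developing T cells. The 40 genes were picked by symbol from the 55487 genes counted and consist of 14 genes used in S phase, when DNA is copied, and 26 genes used in G2 and mitosis (G2/M). All mice were wild-type C57BL/6J females, 4 weeks old, and were injected into the peritoneum for 7 days with spermidine, a natural polyamine, dosed at 15 mg/kg, or with its vehicle alone, phosphate-buffered saline (PBS). Cells were depleted of CD45-positive cells on beads and sorted as mTEChi, the fraction that holds the Aire-expressing stage, and as post-Aire mTEClo. Antibody hashtags marked 4 samples, with PBS replicate 1 under HT4, PBS replicate 2 under HT5, spermidine replicate 1 under HT2 and spermidine replicate 2 under HT3, and all were run together in 1 pool of droplet-based 3' sequencing. Whether each replicate was a different mouse is not stated by the labels, and every p-value therefore reflects only the scatter among hashed samples, possibly a technical one.

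In a dividing cell, the MCM helicase is loaded on DNA by Cdc6 and opened by cyclin E with its kinase, nucleotides and the clamp Pcna then serve replication, and cyclin A and cyclin B with Cdk1 later drive the cell into mitosis. Aurora kinases, Plk1 and the kinesins build the spindle, the Bub proteins hold the cell until chromosomes are attached, and Cdc20 and Ube2c then mark cyclins and other proteins for destruction. In the thymic medulla, dividing mTEC precursors, often called transit-amplifying cells, precede the Aire stage. Genes of G1/S are known to be controlled through E2F factors, and genes of G2/M through the cell cycle genes homology region (CHR), bound by the DREAM and MuvB complexes, and through the CCAAT box, bound by NF-Y.

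The start of the promoter carries these letters in different members. RefSeq promoters of 300 bases (250 before to 50 after the start, GRCm38.p6) were given for 33 of the 40 members, and they were searched on both strands for the CHR letters TTTGAA, the CCAAT box letters CCAAT and the E2F letters TTTNNCGC. TTTGAA stood in 16 of 21 G2/M promoters (76.2%) and in 1 of 12 S phase promoters (8.33%), against 18.1% of all 27025 promoters of that length. TTTNNCGC had the reverse pattern, in 7 of 12 S phase promoters (58.3%) and 2 of 21 G2/M promoters (9.52%), against 5.27% of all. CCAAT was found in 75% of the S phase and 90.5% of the G2/M promoters, against 37.9% of all. The 200 bases before the start are shown for a pair of S phase members and 4 G2/M members on which the comparisons below turn, with matches to any of the 3 motifs, on either strand, in capitals. Mcm5 is at chr8:75109309-75109508 on the plus strand, Mcm6 at chr1:128359706-128359905 on the minus strand, Cdk1 at chr10:69352913-69353112 on the minus strand, Top2a at chr11:99024190-99024389 on the minus strand, Ube2c at chr2:164769729-164769928 on the plus strand and Ccnb1 at chr13:100786487-100786686 on the minus strand.
Mcm5: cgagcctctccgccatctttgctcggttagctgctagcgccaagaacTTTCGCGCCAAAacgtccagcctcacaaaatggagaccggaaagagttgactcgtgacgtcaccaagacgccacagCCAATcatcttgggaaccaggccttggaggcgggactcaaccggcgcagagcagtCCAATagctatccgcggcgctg
Mcm6: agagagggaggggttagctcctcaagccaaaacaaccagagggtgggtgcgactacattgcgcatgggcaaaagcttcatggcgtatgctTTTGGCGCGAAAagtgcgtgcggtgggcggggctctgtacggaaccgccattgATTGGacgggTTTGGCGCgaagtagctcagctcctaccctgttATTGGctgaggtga
Cdk1: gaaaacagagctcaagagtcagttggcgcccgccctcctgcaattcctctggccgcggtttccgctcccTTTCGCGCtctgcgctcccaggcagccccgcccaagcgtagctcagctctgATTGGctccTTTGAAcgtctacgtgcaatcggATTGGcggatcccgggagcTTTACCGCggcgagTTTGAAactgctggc
Top2a: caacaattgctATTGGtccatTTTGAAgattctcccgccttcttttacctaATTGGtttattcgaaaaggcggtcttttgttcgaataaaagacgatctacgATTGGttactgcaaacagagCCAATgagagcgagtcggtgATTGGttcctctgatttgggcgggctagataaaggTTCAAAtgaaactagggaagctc
Ube2c: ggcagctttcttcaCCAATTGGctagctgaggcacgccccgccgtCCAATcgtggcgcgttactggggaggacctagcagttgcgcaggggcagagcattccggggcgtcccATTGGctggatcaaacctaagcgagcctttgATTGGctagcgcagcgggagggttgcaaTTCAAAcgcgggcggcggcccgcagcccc
Ccnb1: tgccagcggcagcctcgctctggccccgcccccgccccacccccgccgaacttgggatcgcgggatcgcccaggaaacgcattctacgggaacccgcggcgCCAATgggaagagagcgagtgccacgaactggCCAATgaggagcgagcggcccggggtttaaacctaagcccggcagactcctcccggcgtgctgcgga
Cdk1 holds matches to all 3 motifs, Top2a and Ube2c hold TTTGAA and CCAAT, Ccnb1 holds CCAAT and no TTTGAA in this window, and the pair of helicase genes hold TTTNNCGC and CCAAT. A match is a string of letters and was not tested as a binding site.

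After filters, 4709 cells were assigned to 1 of the 4 hashed samples, 1335 and 993 with PBS and 1374 and 1007 with spermidine, with 17668782 to 25673749 unique molecular identifiers (UMIs, counted RNA molecules) per sample. The classes are named "like" because they rest on marker genes of clusters, and the cluster called transit-amplifying-like was led by 10 members, Ccna2, Ube2c, Hmmr, Pclaf, Mki67, Birc5, Pbk, Nusap1, Cdca8 and Ccnb2. Of the kept and assigned cells, 897 were called doublets once the unlabelled hashtags HT6 and HT7 were added to the assignment. The mixing ratio of the 2 sorted fractions is not stated by the labels, and the sort and the pool can set how many cells each class holds. A summed level cannot tell fewer cells of a kind from less RNA per cell.

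Levels by class are UMIs per 1000000 gene UMIs (UPM), given as a description without a test, because the members helped to form the clusters. G2/M members were at 4593 ± 817 UPM in transit-amplifying-like cells, 1338 ± 721 in immature mTEC-like cells, 583 ± 132 in Aire-stage cells and 339.5 ± 17.8 in tuft-like cells (SD, n = 4 samples). S phase members stood at 836 ± 59.0, 553 ± 241, 155 ± 20.8 and 119 ± 7.16 UPM in the same order (SD, n = 4). The S phase sum in immature cells was thus much nearer to that of transit-amplifying-like cells than the G2/M sum was. Transit-amplifying-like cells were 83 and 77 with PBS and 173 and 127 with spermidine, and immature cells 106, 87, 63 and 59.

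**Figure D1:**
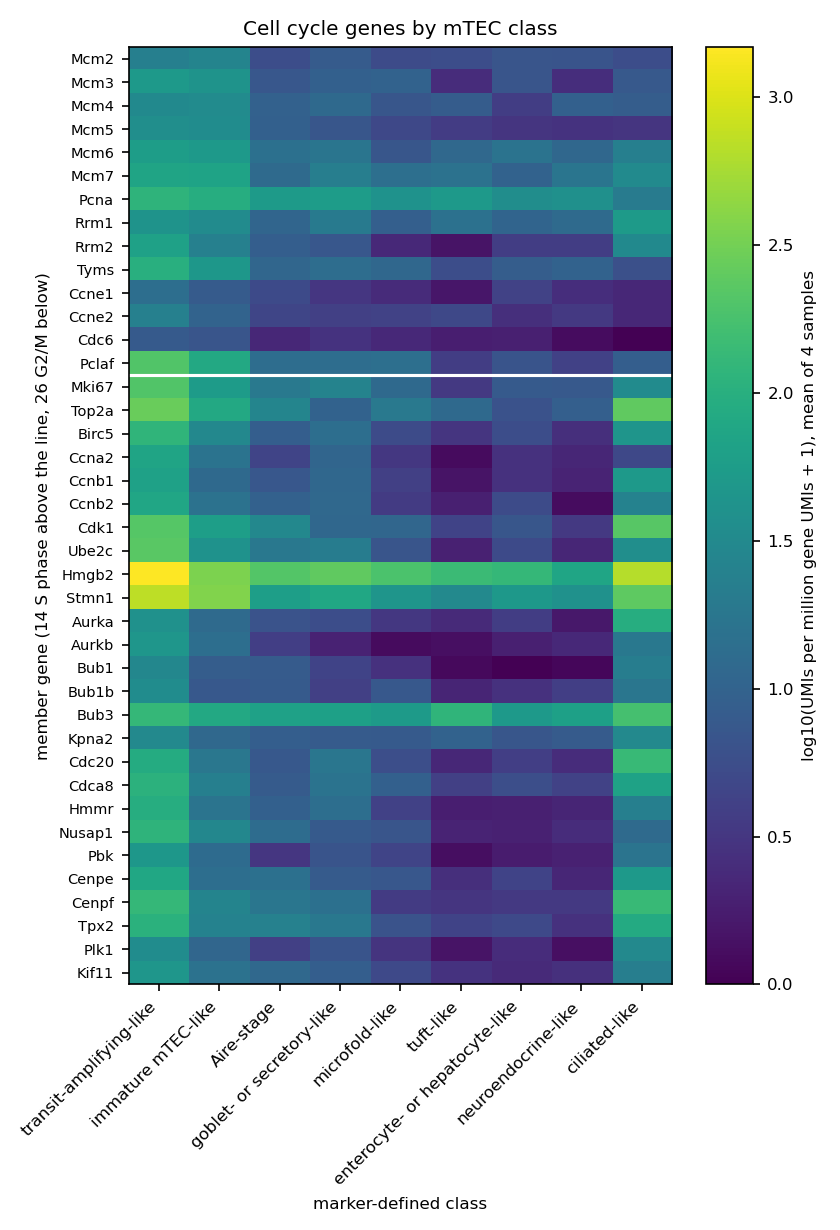
Mean level over the 4 samples, as log10 of UMIs per 1000000 gene UMIs plus 1, of the 14 S phase members (above the white line) and the 26 G2/M members (below it) in 9 marker-defined classes. The transit-amplifying-like column is high in both blocks, the immature column is high in the S phase block, and the ciliated-like column is high in part of the G2/M block.

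Single members showed the same contrast between the phases. The level in transit-amplifying-like over immature cells was between 0.864 and 2.78 times for the 14 S phase members, with a median of 1.22, and between 1.57 and 5.92 times for the 26 G2/M members, with a median of 4.03. Mcm2 and Mcm4, subunits of the replicative helicase, were higher in immature cells: Mcm2 was at 25.6 ± 9.5 UPM there and 22.1 ± 4.1 in transit-amplifying-like cells, which is within the spread (SD, n = 4). The related subunits Mcm5 and Mcm7 were nearly level, at 33.6 and 36.3 UPM for Mcm5 and 68.6 and 70.0 for Mcm7. Ube2c, which loads ubiquitin on mitotic targets, was by contrast at 40.3 ± 49 UPM in immature and 226 ± 83 in transit-amplifying-like cells. All 26 G2/M members and 12 of 14 S phase members had their highest mean in transit-amplifying-like cells among the classes with at least 20 cells in each sample.

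Some members were present in every class. Pcna was at 50.3 ± 3.7 UPM in tuft-like and 52.4 ± 7.4 in Aire-stage cells, against 115 ± 15 in transit-amplifying-like cells, and Bub3, a checkpoint protein, was at 118 ± 8.6 in tuft-like and 128 ± 35 in transit-amplifying-like cells (SD, n = 4). The chromatin protein gene Hmgb2 was at 143 ± 14 UPM in tuft-like cells. Ccnb1, Ccna2 and Bub1 were under 1 UPM in tuft-like cells.

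Ciliated-like cells stood apart, with only 22, 9, 11 and 7 cells per sample. Their G2/M sum of 2491 ± 722 UPM lay between those of immature and transit-amplifying-like cells, while their S phase sum was 194 ± 43.6 (SD, n = 4). In ciliated-like over transit-amplifying-like cells, the median ratio was 0.151 for S phase and 0.555 for G2/M members. The 5 G2/M members with a ratio above 1 were Aurka, an Aurora kinase of centrosomes and cilium disassembly, at 2.41, Cdc20 at 1.54, Bub3 at 1.35, Cenpf at 1.06 and Cdk1 at 1.04. Kpna2, Plk1, Top2a and Ccnb1 were a little lower, at 0.999, 0.887, 0.885 and 0.787. The lowest G2/M ratios were 0.0564 for Ccna2, 0.0986 for Nusap1, 0.159 for Mki67 and 0.160 for Ube2c. Among S phase members the ratio was 0.038 for Pclaf, a partner of Pcna, and above 1 only for Rrm1, a subunit of ribonucleotide reductase, at 1.27. Cdc6 had no UMI in these cells.

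**Figure D2:**
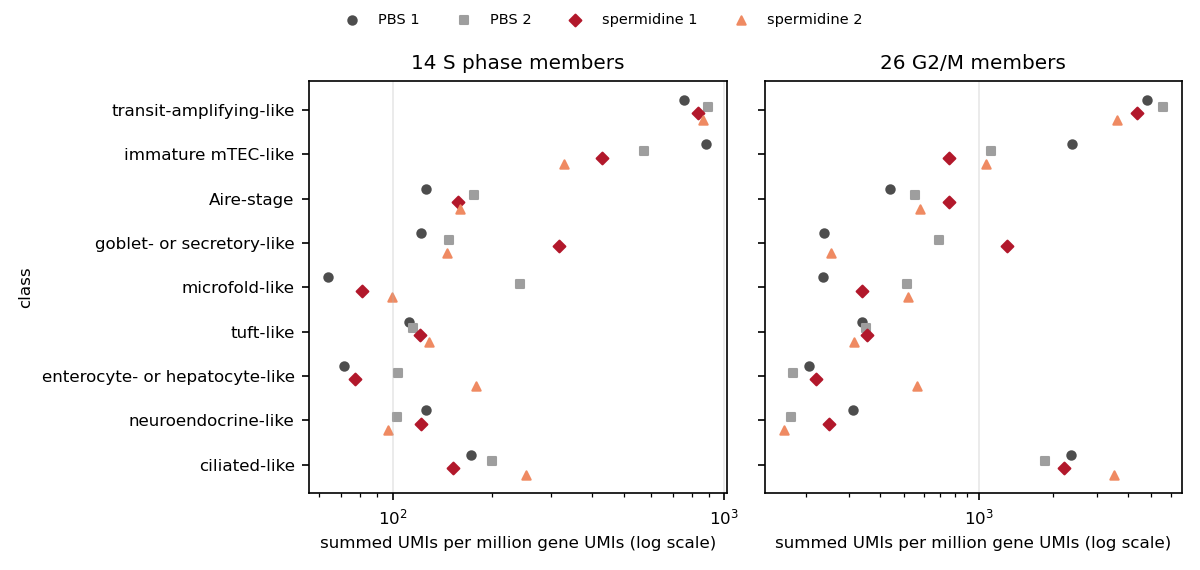
Summed UMIs per 1000000 gene UMIs (log axes) of the 14 S phase members (left) and 26 G2/M members (right) in each class, 1 point per hashed sample. Ciliated-like cells lie near the immature cells or above them for G2/M, with means of 2491 and 1338, and below them for S phase, with means of 194 and 553.

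The balance of the phases was compared as the log2 ratio of the S phase to the G2/M sum. Much of the G2/M sum came from Hmgb2 and Stmn1, at 1480 and 719 of 4593 UPM in transit-amplifying-like cells. The ratio therefore leans on these genes. It was -2.44 ± 0.28 in transit-amplifying-like, -1.24 ± 0.41 in immature, -1.89 ± 0.26 in Aire-stage and -3.66 ± 0.30 in ciliated-like cells (SD, n = 4). Ciliated-like cells were lower than transit-amplifying-like cells in every sample, and immature cells were higher than them in every sample. Under PBS the ratio in transit-amplifying-like cells was -2.67 and -2.64, and under spermidine it was -2.39 and -2.06. These values do not overlap. In immature cells both sums were lower with spermidine, at 727 ± 219 and 379 ± 70.3 UPM for S phase and 1758 ± 897 and 917 ± 219 for G2/M (SD, n = 2), without a test.

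In transit-amplifying-like cells, no member passed the test between spermidine and PBS, and the 2 phases leaned in opposite directions. The S phase sum was 824 ± 96.1 UPM with PBS and 849 ± 23.1 with spermidine, and the G2/M sum was 5190 ± 533 and 3995 ± 538, lower in both spermidine samples (SD, n = 2). Counts were summed over the cells of a sample, scaled to counts per 1000000 (CPM, with TMM-adjusted library sizes) and tested with edgeR's quasi-likelihood test over 12418 genes with Benjamini-Hochberg adjustment. It called 0 genes (0%) at an adjusted p of 0.05, and 769 genes (6.19%) had an unadjusted p under 0.05, of which 2.96% of all genes were higher and 3.24% lower. DESeq2 called 17 genes (0.137%). Of the 26 G2/M members, 25 had a lower estimate (median log2 fold change -0.43), and 14 of them had an unadjusted p under 0.05. Of the 14 S phase members, 10 had a higher estimate, with a median of 0.24, and 4 had an unadjusted p under 0.05. The median over all genes was -0.00. Both spermidine samples were below both PBS samples for 18 of 26 G2/M members, where 17.8% of all genes were, and above them for 7 of 14 S phase members, where 17.5% of all genes were.

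Among the mitotic members, the smallest p belonged to Kpna2 (chr11:106988629-106999541, GRCm38), the importin alpha that carries spindle factors. It was at 45.2 and 41.2 CPM with PBS and 17.9 and 17.1 with spermidine, a log2 fold change of -1.30 ± 0.18 (SE; edgeR adjusted p = 0.158). Cdk1 (chr10:69335146-69352938), the kinase of mitotic entry, was at 269 and 283 CPM with PBS and 173 and 139.5 with spermidine, or -0.81 ± 0.12 (SE; edgeR adjusted p = 0.166). Both genes were well separated between the groups, with little spread inside each. Bub3 was at 164 and 155 CPM with PBS and 105 and 93.3 with spermidine (edgeR log2 -0.69, adjusted p = 0.195). Ube2c was at 309.6 and 285 CPM with PBS and 189 and 129.9 with spermidine (edgeR log2 -0.89, adjusted p = 0.281). Aurkb, the kinase that corrects wrong chromosome attachments, was at 52.4 and 78.8 CPM with PBS and 32.8 and 22.3 with spermidine (edgeR log2 -1.22, adjusted p = 0.332). In each of these 3 the lowest PBS value lay above the highest spermidine value.

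Top2a, the topoisomerase that untangles chromosomes, was at 318 and 394 CPM with PBS and 243 and 179 with spermidine (edgeR log2 -0.75, adjusted p = 0.346). Ccnb1, the cyclin of mitotic entry, was at 73.6 and 75.7 CPM with PBS and 60.6 and 48.1 with spermidine (edgeR log2 -0.45, adjusted p = 0.629). Cdc20, which activates the anaphase-promoting complex, was at 102 and 93.7 CPM with PBS and 81.0 and 80.0 with spermidine (edgeR log2 -0.28, adjusted p = 0.746). Groups of these 3 did not overlap. The values of Mki67, the proliferation antigen, did overlap, at 187 and 256 CPM with PBS and 223 and 159 with spermidine (edgeR log2 -0.21, adjusted p = 0.94). Ccnb2, another B-type cyclin, was the only G2/M member with an estimate above 0, at 0.01, and Hmmr and Tpx2, spindle assembly factors, were at -0.01 and -0.05. Estimates thus varied within the G2/M block, from -1.30 for Kpna2 to 0.01 for Ccnb2. Pseudogene copies of Kpna2, Ccnb1, Tyms and Pcna are among the counted genes, and the counts of these 4 members are uncertain to that extent.

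S phase members had smaller differences. Mcm2 was at 19.2 and 18.5 CPM with PBS and 26.5 and 25.1 with spermidine (edgeR log2 0.45, adjusted p = 0.785). Mcm4 was at 27.9 and 23.2 CPM with PBS and 32.2 and 42.2 with spermidine (edgeR log2 0.53, adjusted p = 0.761). Mcm6 was at 47.1 and 52.5 CPM with PBS and 58.9 and 75.05 with spermidine (edgeR log2 0.42, adjusted p = 0.741). All 3 belong to the helicase and their groups did not overlap, nor did those of Mcm5, at 32.2 and 34.5 against 38.3 and 41.9 CPM. Pcna, the sliding clamp, was at 104 and 104 CPM with PBS and 122 and 135 with spermidine (edgeR log2 0.30, adjusted p = 0.715). Ccne2, a cyclin of S phase entry, was at 17.3 and 22.1 CPM with PBS and 24.0 and 29.1 with spermidine (edgeR log2 0.42, adjusted p = 0.823). Its relative Ccne1 had overlapping values, 8.65 and 15.96 against 14.3 and 14.3 CPM, and so did the loader Cdc6, with 6.73 and 4.12 against 6.31 and 10.8 CPM. Pclaf, Tyms, Rrm1 and Mcm7 had estimates below 0, at -0.36, -0.17, -0.11 and -0.00.

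**Figure D3:**
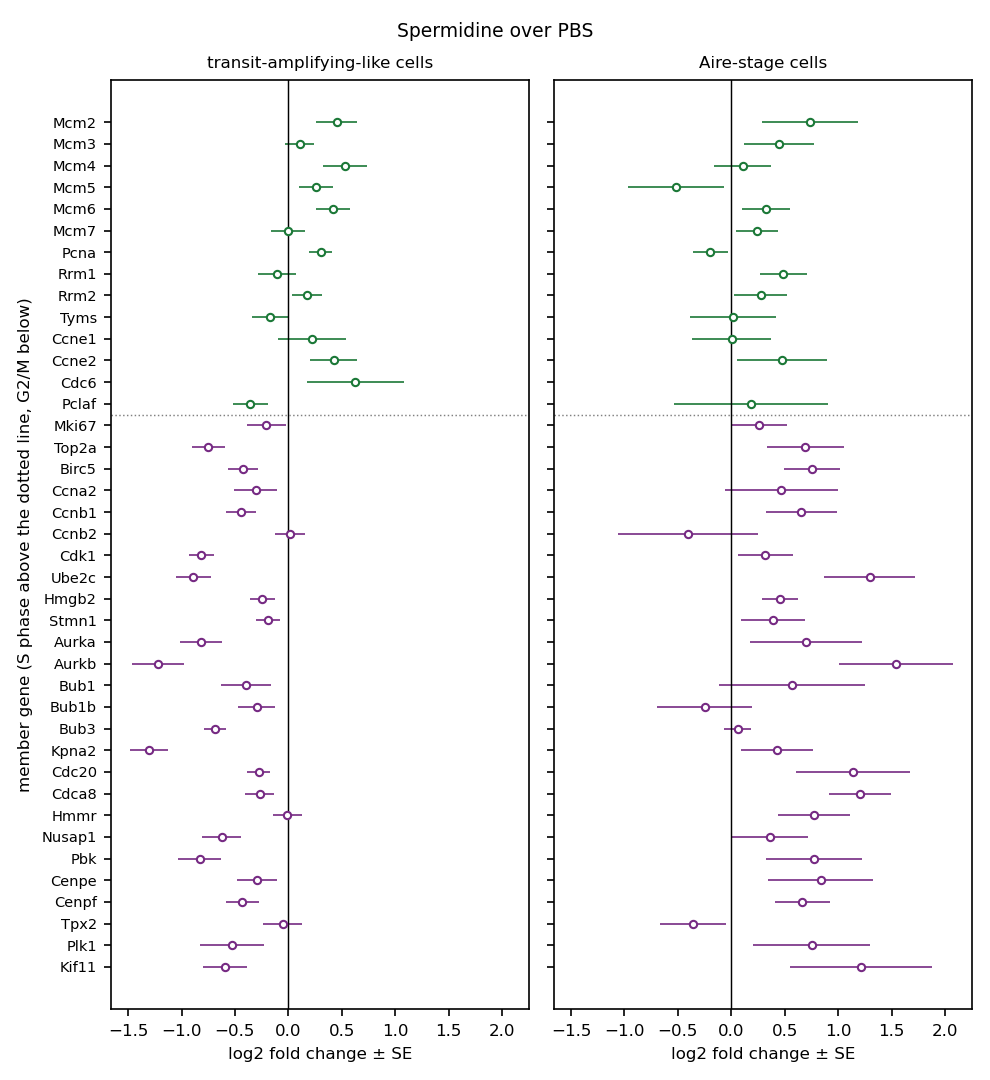
Log2 fold change of spermidine over PBS with its SE, from edgeR, for each member in transit-amplifying-like (left) and Aire-stage cells (right), S phase above the dotted line. Open circles mark an adjusted p of 0.05 or more, which holds for every member. On the left 25 of 26 G2/M members lie below 0 and on the right 23 of 26 lie above it.

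Other G2/M genes leaned lower in this class too, and none passed the test. Of 35 further G2/M genes that were used to define dividing cells (below), all 35 had lower estimates, with a median of -0.39, led by Ect2 (-0.69, edgeR adjusted p = 0.391), Prc1 (-1.01, edgeR adjusted p = 0.419) and Spc25 (-0.67, edgeR adjusted p = 0.439). Of the 18 S phase genes used in the same way, 12 had higher estimates, with a median of 0.08. Of another G2/M list, 21 of 22 tested had lower estimates (median -0.24), while 26 tested S phase genes of the same kind split into 13 and 13 (median 0.00). Regulators of G1 and of arrest were mixed, 11 higher and 17 lower, with Cdkn1c, an inhibitor of cyclin-dependent kinases, at 1.62 (edgeR adjusted p = 0.482) and the inhibitor Cdkn2d at -0.92 (edgeR adjusted p = 0.61). Aire was level in these cells, at 805 and 923 CPM with PBS and 874 and 813 with spermidine (edgeR log2 -0.03, adjusted p = 0.982).

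Members were also compared in cells of this class that were further chosen by other genes. The class itself was still formed with the help of the members. In the 158 transit-amplifying-like cells with at least 8 UMIs of the 53 gate genes described below, 25 of 26 G2/M members had lower estimates (median -0.40) and 12 of 14 S phase members had higher ones (median 0.54), with 0 members and 3 genes (0.0316%) called. With each gene capped at 10 UMIs per cell, 21 of 26 G2/M members were lower, with a median of -0.24, and Aurkb, Bub3, Kpna2 and Pbk were among the 0.218% of genes called. DESeq2 called Cdk1, Top2a and Ube2c. Leaving out spermidine replicate 1 led to 8 called members, where 0.768% of all genes were called, and leaving out spermidine replicate 2 to 4, where 0.733% were, all lower. Leaving out PBS replicate 1 or PBS replicate 2 led to 0 called members, where 0.036% and 0.178% of all genes were called. With 1 sample left in a group, that sample is assumed to vary like the others. Summed markers of thymocytes were at 53.0 and 40.1 UPM with PBS and 16.7 and 24.1 with spermidine in these cells, with all 13 detected. B cell markers, with all 8 detected, went the other way, at 151 and 169 UPM with PBS and 235 and 256 with spermidine. So did myeloid markers, with 11 of 12 detected, at 219 and 176 UPM with PBS and 281 and 240 with spermidine. Erythroid markers, with all 5 detected, were at 13.98 to 16.5 UPM in 3 samples and 252 in spermidine replicate 2. The part of these marker lists in the result was not tested. Median depth also differed, at 36493 and 37813 UMIs per cell with PBS and 31977 and 31936 with spermidine among the 158 cells, and its part was likewise not tested.

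In Aire-stage cells, the G2/M members leaned towards higher values with spermidine, and no gene passed the test. The summed G2/M level was 496 ± 80.0 UPM with PBS and 670.3 ± 125 with spermidine, and the S phase level 151 ± 35.1 and 159 ± 1.52 (SD, n = 2). Over 18792 genes, edgeR called 0 (0%), 1254 genes (6.67%) and 5 members had an unadjusted p under 0.05, and DESeq2 called 80 genes (0.426%), none of them a member. The filter on low counts kept 39 of 40 members and removed Cdc6. Of these, 23 of 26 G2/M members had higher estimates (median 0.66) and 11 of 13 S phase members (median 0.24), and 11 and 7 had both spermidine samples above both PBS samples, where 18.8% of all genes did.

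The 5 members with the smallest p were Cdca8, Ube2c, Aurkb, Birc5 and Hmgb2. Cdca8, a subunit of the chromosomal passenger complex, was at 3.78 and 4.96 CPM with PBS and 10.3 and 9.81 with spermidine (edgeR log2 1.20, adjusted p = 0.676). Its partners leaned the same way: Birc5 was at 6.23 and 5.52 against 10.7 and 9.1 CPM (edgeR log2 0.75, adjusted p = 0.736) and Aurkb at 1.13 and 1.84 against 5.54 and 3.13 CPM (edgeR log2 1.54, adjusted p = 0.732). Ube2c was at 8.12 and 12.3 CPM with PBS and 33.6 and 16.4 with spermidine (edgeR log2 1.30, adjusted p = 0.718). Hmgb2 was at 151 and 204 CPM with PBS and 259.5 and 227 with spermidine (edgeR log2 0.46, adjusted p = 0.736). In all 5 the groups did not overlap. Ccnb1 was at 4.16 and 5.7 against 6.78 and 8.82 CPM (edgeR log2 0.66, adjusted p = 0.812) and Cdc20 at 4.34 and 3.86 against 12.99 and 4.98 CPM (edgeR log2 1.14, adjusted p = 0.791), again without overlap.

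For Cdk1, Top2a and Mki67 the groups overlapped. Cdk1 was at 24.6 and 28.1 CPM with PBS and 40.2 and 25.2 with spermidine (edgeR log2 0.32, adjusted p = 0.879). Top2a was at 15.9 and 25.4 against 42.1 and 24.3 CPM (edgeR log2 0.69, adjusted p = 0.814), and Mki67 at 16.4 and 17.1 against 24.4 and 15.5 CPM (edgeR log2 0.26, adjusted p = 0.904). In all 3 it was spermidine replicate 1 alone that exceeded both PBS samples. Estimates below 0 belonged to Ccnb2 (15.7 and 3.86 against 7.16 and 7.54 CPM), Tpx2 (21.9 and 31.4 against 25.5 and 15.8 CPM) and the checkpoint kinase Bub1b (4.72 and 10.5 against 6.11 and 6.68 CPM). Among S phase members Mcm2 was at 2.83 and 4.23 against 7.45 and 4.27 CPM, Mcm5 at 6.23 and 13.8 against 7.93 and 5.97 CPM, and Pcna at 49.1 and 63.4 against 45.8 and 52.5 CPM. Ccne1 was at 4.91 and 3.49 against 4.30 and 4.12 CPM and Ccne2 at 3.02 and 3.13 against 5.25 and 3.27 CPM. Of these 5, Mcm2 and Ccne2 did not overlap, with both spermidine samples above both PBS samples.

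These levels rested on few cells. In at least 1 sample, a single cell held at least 25% of a member's Aire-stage UMIs for 21 of 26 G2/M and 9 of 14 S phase members, and at least 50% for 7 and 5. For Plk1, the polo-like kinase, 1 cell held 87.5% in PBS replicate 2, and for Ccne1 1 cell held 73.1% in PBS replicate 1. In transit-amplifying-like cells the corresponding counts at 25% were 1 and 2 members, and none reached 50%. Split by its clusters, the Aire-stage class gave 20 of 26 G2/M members higher in cluster 1 (median 0.29), led by S100a8 and S100a9, with 6 of 13 S phase members higher. Only 24 members passed the filter in cluster 0, led by Klk1b11, of which 17 had higher estimates. Erythroid markers were at 165 and 139 UPM with PBS and 321 and 758.5 with spermidine in this class, with all 5 detected, and their part was not tested. Without spermidine replicate 1, 16 of 26 G2/M members had higher estimates, with a median of 0.27.

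The difference of the spermidine effect between transit-amplifying-like and Aire-stage cells was then tested itself, with the hashed sample as a block. Members helped to form these classes, and the part of the border between them was not tested. No gene of 18504 passed (0%), and 992 (5.36%) had an unadjusted p under 0.05, 2.3% lower and 3.06% higher. DESeq2 called 5 genes (0.027%), among them Hmgb2, Top2a and Ube2c. Of the 26 G2/M members, 24 had a more negative effect in transit-amplifying-like cells (median -1.06), 19 of them with an unadjusted p under 0.05, and the 14 S phase members split into 7 and 7 (median -0.03). The median over all genes was 0.06. The smallest adjusted p of a member was 0.337, shared by Aurkb (log2 difference -2.72 ± 0.34), Ube2c (-2.10 ± 0.27), Top2a (-1.39 ± 0.19) and Hmgb2 (-0.65 ± 0.09; SE, edgeR). For Cdk1 the difference was -1.07 ± 0.17 (SE, edgeR adjusted p = 0.385), and for Pcna, in the opposite direction, 0.54 ± 0.17 (SE, edgeR adjusted p = 0.914).

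Dividing cells were also taken without using the members, through a gate of 53 other cell cycle genes (18 of S phase, 35 of G2/M). Each of the mTECs with at least 5000 UMIs was thinned to 5000 UMIs, and a cell with at least 3 gate UMIs counted as gated. That limit lay near the background, since 12.1% of tuft-like cells and 7.17% of neuroendocrine-like cells passed it, beside 59.9% of transit-amplifying-like, 26.9% of Aire-stage and 72.3% of ciliated-like cells. Stricter limits are therefore given beside it: at least 8 gate UMIs, which 0.425% of tuft-like cells and 39.4% of transit-amplifying-like cells passed, and at least 5 different gate genes without ciliated-like cells. The last was chosen after seeing that in 17 of 52 Aire-stage cells with at least 8 gate UMIs a single gate gene made up over 50% of these UMIs, which was so in 1 of 158 transit-amplifying-like and 0 of 33 immature cells. Of the same 52 Aire-stage cells, 27 held 10 or fewer member UMIs, with a median of 8, against a median of 45 in transit-amplifying-like cells.

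**Figure D4:**
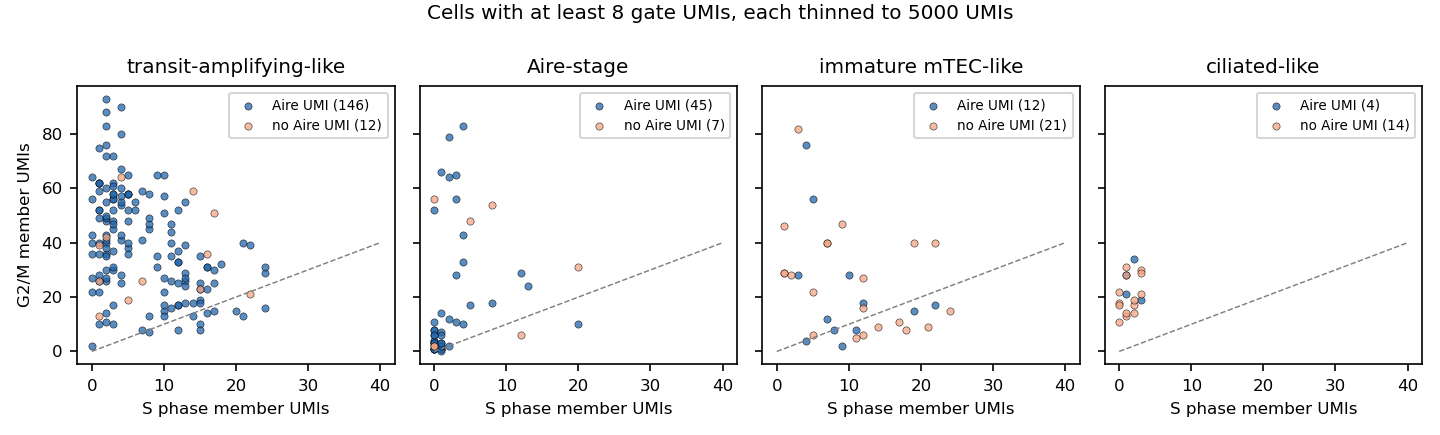
Each point is 1 cell with at least 8 gate UMIs, thinned to 5000 UMIs, by its S phase member UMIs (x axis) and G2/M member UMIs (y axis), in 4 classes and coloured by the presence of an Aire UMI; the dashed line marks equal counts. Transit-amplifying-like cells spread over both phases, ciliated-like cells have few S phase UMIs, and 27 of 52 Aire-stage cells lie near the origin.

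More cells were gated with spermidine, though the design could not make this pass a test. The gated share was 18.1% and 20.5% of mTECs with PBS and 25.6% and 25.6% with spermidine, a difference of 6.27 percentage points (two-sided exact permutation p = 0.333, the smallest that 2 against 2 samples allow). With at least 5 different gate genes it was 5.57% and 5.98% with PBS and 10.0% and 8.36% with spermidine, or 3.43 points (exact p = 0.333). The groups did not overlap under any limit tried. Among cells with at least 8 gate UMIs, those with more S phase than G2/M member UMIs numbered 10 of 61 and 2 of 49 under PBS, against 7 of 108 and 8 of 61 under spermidine, which overlap. The log2 ratio of the S phase to the G2/M sum in gated cells was -2.16 and -2.19 with PBS and -2.37 and -2.05 with spermidine, also overlapping. Without 5 members held to be less specific to a phase, it was -1.48 and -1.53 with PBS and -1.695 and -1.14 with spermidine. These values overlapped as well.

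Summed over gated mTECs, no member passed the test between treatments. Of 17219 genes edgeR called 0 (0%), 2541 (14.8%) had an unadjusted p under 0.05, and DESeq2 called 369 genes (2.14%), none a member. Estimates were higher for 10 of 14 S phase members (median 0.14) and lower for 15 of 26 G2/M members (median -0.06), and 7 S phase members were above PBS without overlap, where 23.9% of all genes were, and 6 G2/M members below it, where 23.5% were. Helicase genes were close between groups: Mcm2 was at 19.4 and 15.6 CPM with PBS and 21.2 and 22.2 with spermidine, Mcm4 at 22.9 and 24.3 against 26.5 and 30.6 CPM, Mcm5 at 30.6 and 29.1 against 33.4 and 32.6 CPM, and Mcm6 at 40.6 and 47.8 against 49.5 and 57.8 CPM. Ccne2 had the smallest p among S phase members, at 15.5 and 17.2 against 22.0 and 22.0 CPM (edgeR log2 0.43, adjusted p = 0.319). Pcna was at 99.4 and 99.6 against 100.2 and 116 CPM, Ccne1 at 7.84 and 10.8 against 13.1 and 9.36 CPM, and Cdc6 at 6.47 and 6.20 against 5.98 and 8.44 CPM.

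Estimates below 0 among G2/M members included 6 of 26 whose groups did not overlap, a share close to the 23.5% of all genes. Cdk1 was at 189 and 169.6 CPM with PBS and 152 and 120.0 with spermidine (edgeR log2 -0.40, adjusted p = 0.291). Aurkb was at 32.1 and 40.6 against 27.2 and 18.3 CPM (edgeR log2 -0.67, adjusted p = 0.304), Kpna2 at 26.3 and 24.1 against 19.8 and 14.9 CPM (edgeR log2 -0.53, adjusted p = 0.313) and Bub3 at 144 and 120.3 against 111 and 93.7 CPM (edgeR log2 -0.37, adjusted p = 0.312). Pbk, a mitotic kinase, was at 32.5 and 39.2 against 28.2 and 22.9 CPM and Top2a at 234 and 245 against 209.6 and 155 CPM. Hmmr was the G2/M member with the smallest p in the other direction, at 51.5 and 56.2 against 77.5 and 61.1 CPM (edgeR log2 0.37, adjusted p = 0.345). Mki67 was at 129 and 145 against 164 and 111 CPM, Ccnb1 at 50.2 and 44.3 against 46.5 and 38.5 CPM and Cdc20 at 73.1 and 57.2 against 76.1 and 63.7 CPM, all overlapping. With at least 5 different gate genes, G2/M members leaned lower (20 of 26, median -0.31, 17 without overlap where 18.3% of all genes were) and S phase members did not lean higher (5 of 14, median -0.04). With at least 8 gate UMIs and without ciliated-like cells, 24 of 26 G2/M members were lower (median -0.34), where 49.9% of all genes were. Of the S phase members 11 of 14 were then higher (median 0.11), so their lean depended on the limit.

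Among cells with a strong gate signal, the share with Aire differed by class. At least 1 Aire UMI in the 5000 thinned UMIs was seen in 146 of 158 transit-amplifying-like cells with at least 8 gate UMIs (92.4%, 95% exact binomial interval 87.1% to 96.0%), in 45 of 52 Aire-stage cells (86.5%, 74.2% to 94.4%), in 12 of 33 immature cells (36.4%, 20.4% to 54.9%) and in 4 of 18 ciliated-like cells (22.2%, 6.41% to 47.6%). Intervals cover counting error only. Over all cells of these classes, whatever their gate UMIs, the shares were 90.0%, 73.0%, 22.4% and 17.0%, in the same order. Classes that should lack Aire had shares of 14.5% (tuft-like, all cells), 13.5% (thymocyte-like) and 14.3% (myeloid-like), with median depths of 12724, 5913 and 16666 UMIs, against 27110 in transit-amplifying-like cells. The immature and ciliated-like shares have intervals whose lower ends are 20.4% and 6.41%. These intervals pool the cells of 4 samples and both treatments and leave out the spread between samples. Neither share can therefore be told from this background by its interval. The immature share also varied by sample, with 3 of 18 and 4 of 9 cells under PBS and 4 of 4 and 1 of 2 under spermidine.

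The share of gated cells with Aire was 46.4% and 60.1% with PBS and 72.0% and 67.1% with spermidine (difference of 16.3 points, two-sided exact permutation p = 0.333). Among mTECs that were not gated the share was 30.6% and 33.5% with PBS and 41.8% and 38.4% with spermidine. The rise was thus not limited to gated cells. With at least 5 different gate genes the gated values overlapped, at 68.3% and 82% with PBS and 89.0% and 75.7% with spermidine (exact p = 0.667). Those of mTECs outside this limit did not, at 31.9% and 36.4% with PBS and 45.3% and 43.3% with spermidine. The make-up of the gated cells moved with treatment: tuft-like cells made up 53 of 209 and 31 of 173 gated cells under PBS, against 33 of 303 and 25 of 216 under spermidine.

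Gated cells with Aire had more member RNA than gated cells without. In edgeR with the hashed sample as a block, over 13972 genes other than Aire, 24 of 40 members were called higher and 0 lower, where 35.6% of all genes were called and 18.5% called higher. The called members were 18 of 26 in G2/M and 6 of 14 in S phase, and all 40 estimates were above 0, with a median of 1.08. Tuft marker levels were 3154 to 5202 UPM without Aire and 341 to 1148 with it, so the 2 sets also differed in the classes they held. The count of called members was 6 without PBS replicate 1, 15 without PBS replicate 2, 9 without spermidine replicate 1 and 29 without spermidine replicate 2, where 22.7%, 23.1%, 26.5% and 27.6% of all genes were called. With HT6 and HT7 in the hashtag assignment it was 9, where 28.2% were.

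Tpx2 had the smallest p of the members, followed by Tyms, Nusap1, Pbk and Cenpf. Tpx2 was at 84.6 to 138 CPM with Aire and 34.5 to 51.7 without (edgeR log2 1.22, adjusted p = 0.00603), and Nusap1, a microtubule bundler, at 61.5 to 150.2 against 21.4 to 43.9 CPM (edgeR log2 1.79, adjusted p = 0.00843). Pbk was at 28.1 to 59.2 against 8.79 to 21.7 CPM (edgeR log2 1.55, adjusted p = 0.00998) and Cenpf, a kinetochore protein, at 92.1 to 144 against 39.6 to 70.2 CPM (edgeR log2 1.15, adjusted p = 0.0106). No sample with Aire fell below any sample without it for these 4. The kinesin Kif11 was at 27.5 to 58.5 against 8.16 to 24.7 CPM, the kinetochore motor Cenpe at 44.1 to 89.6 against 9.42 to 43.3 CPM, Hmmr at 71.6 to 91.7 against 5.65 to 45.6 CPM and Bub1b at 24.7 to 34.3 against 7.54 to 16.4 CPM, each with a log2 change between 1.24 and 1.65.

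Other G2/M members were also called. Ube2c was at 112 to 286 CPM with Aire and 15.7 to 78.7 without (edgeR log2 1.90, adjusted p = 0.0205), Ccna2 at 39.3 to 72.8 against 12.6 to 31.0 CPM (edgeR log2 1.42, adjusted p = 0.0184) and Ccnb2 at 53.9 to 71.8 against 10.1 to 42.1 CPM (edgeR log2 1.18, adjusted p = 0.0419). Cdk1 was at 121 to 277 against 55.9 to 131 CPM (edgeR log2 1.19, adjusted p = 0.0383), with an overlap in spermidine replicate 2, where the cells with Aire were at 121 and those without at 131. Cdc20 was at 68.5 to 93.2 against 25.1 to 60.3 CPM, Birc5 at 78.9 to 123 against 20.7 to 56.2 CPM, Mki67 at 129.5 to 225 against 23.2 to 94.1 CPM and Top2a at 162 to 355 against 79.1 to 178 CPM. Ccnb1 missed the threshold, at 42.4 to 70.1 against 6.28 to 35.6 CPM (edgeR adjusted p = 0.0746). Also called were Hmgb2 at 1107 to 1555 against 396 to 940.5 CPM and Stmn1, which binds tubulin, at 462 to 652 against 225 to 402 CPM.

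In S phase, 6 members were called. Tyms, thymidylate synthase, was at 72.5 to 115 CPM with Aire and 31.0 to 47.4 without (edgeR log2 1.18, adjusted p = 0.00715) and Rrm2, of ribonucleotide reductase, at 50 to 68.3 against 24.8 to 45.1 CPM (edgeR log2 0.95, adjusted p = 0.0193). Pclaf was at 135 to 256 against 45.3 to 111 CPM, Ccne2 at 21.1 to 28.1 against 8.62 to 19.2 CPM, Mcm3 at 44.2 to 50.9 against 14.9 to 42.1 CPM and Mcm5 at 32.5 to 43.1 against 13.03 to 26.9 CPM, with adjusted p between 0.0252 and 0.0417 in edgeR. The S phase members that were not called included Pcna (109 to 122 against 51.5 to 115 CPM), Mcm2 (17.7 to 24.9 against 10.6 to 23.4 CPM), Ccne1 (8.71 to 16.2 against 3.72 to 7.50 CPM) and Cdc6 (5.66 to 10.4 against 4.12 to 7.54 CPM).

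Stricter limits on division left fewer calls among members. With at least 5 gate UMIs 1 member, Nusap1, was called, where 20.1% of all genes were, and with at least 8 gate UMIs 3 members, Ccna2, Hmmr and Nusap1, were, where 13.4% of all genes were. Among cells with at least 5 different gate genes and without ciliated-like cells (43, 41, 105 and 53 with Aire and 20, 9, 13 and 17 without, in PBS replicates 1 and 2 and spermidine replicates 1 and 2), 0 members were called of 335 genes called (3.56%). All 26 G2/M members had higher estimates in cells with Aire (median 0.45), while 10 of 14 S phase members had lower ones (median -0.40). At least 8 gate UMIs without ciliated-like cells gave 26 of 26 higher (median 0.39) and 13 of 14 lower (median -0.39), with 227 of 8880 genes called (2.56%). Among S phase members with estimates below 0, Mcm2 was at 23.2 to 38.6 CPM with Aire and 31.1 to 76.3 without (edgeR log2 -0.76, adjusted p = 0.224), Mcm5 at 50 to 61.6 against 52.9 to 134 CPM (edgeR log2 -0.61, adjusted p = 0.241) and Mcm3 at 69.8 to 80.8 against 59.1 to 129.5 CPM (edgeR log2 -0.47, adjusted p = 0.305). Tyms and Pclaf were level, at 0.05 and 0.00. Aurka and Cenpf lay on the other side, Aurka at 51.4 to 91.5 against 15.8 to 54.2 CPM (edgeR log2 1.08, adjusted p = 0.0941) and Cenpf at 158 to 247 against 131 to 149 CPM (edgeR log2 0.62, adjusted p = 0.0674).

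**Figure D5:**
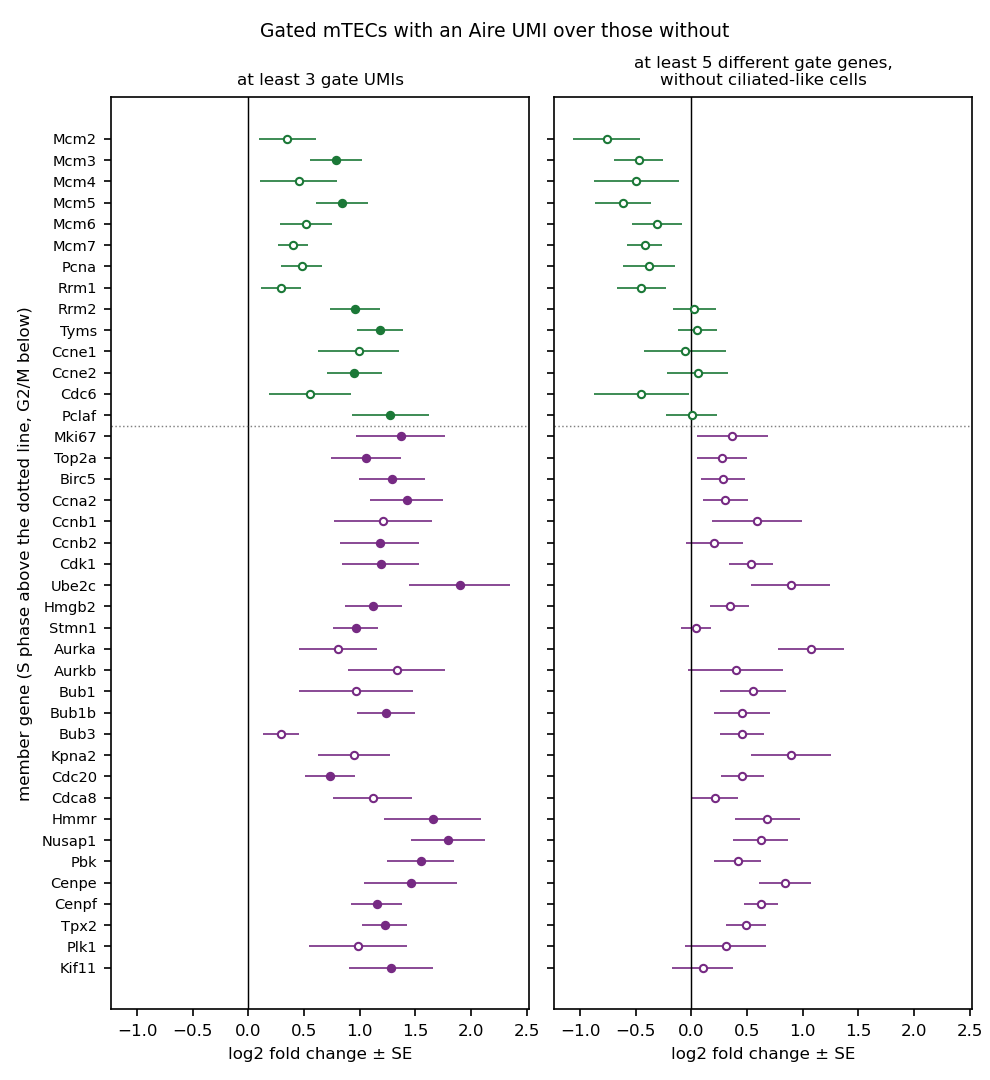
Log2 fold change with its SE, from edgeR, of gated mTECs with an Aire UMI over those without, for each member, at the loose limit of at least 3 gate UMIs (left) and at the strict limit of at least 5 different gate genes without ciliated-like cells (right); filled circles mark an adjusted p under 0.05. On the left all 40 members lie above 0 and 24 are filled, and on the right 10 of 14 S phase members lie below 0 and none is filled.

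The log2 ratio of the S phase to the G2/M sum showed this per sample at the strict limit. It was -2.46, -2.54, -2.42 and -2.22 in cells with Aire and -1.64, -1.47, -2.67 and -1.60 in cells without, in PBS replicates 1 and 2 and spermidine replicates 1 and 2. Cells without Aire thus had relatively more S phase RNA in 3 of 4 samples, and spermidine replicate 1 went the other way with 13 such cells. At the loose limit the ratio was lower with Aire in all 4 samples. Cells with and without Aire also differed in depth at the strict limit, with medians of 31017 to 35713 and 26144 to 28594 UMIs, and the part of depth was not tested. Summed markers of immature mTECs, with all 11 detected, were at 1734, 1683, 1372 and 1547 UPM with Aire and 6083, 6305, 1745 and 2066 without, in the same sample order, and their part was not tested either.

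The difference of the spermidine effect between gated cells with and without Aire was not called for any gene of 15852 in edgeR (0%), with 818 genes (5.16%) at an unadjusted p under 0.05 and 21 genes (0.132%) called by DESeq2, none a member. All 26 G2/M members had a more negative effect in cells with Aire (median -0.95), and 8 of 14 S phase members a more positive one (median 0.20). Ccnb2 had the smallest p, with a difference of -1.42 ± 0.46 (SE, edgeR adjusted p = 0.877), followed by Kpna2 (-1.24, edgeR adjusted p = 0.94), Birc5 (-1.10, edgeR adjusted p = 0.963), Cdca8 (-1.31, edgeR adjusted p = 0.963) and Hmgb2 (-0.87, edgeR adjusted p = 0.99). In cells without Aire, PBS replicate 2 was low for these mitotic genes: Ccnb2 was at 9.91 CPM there and at 27.5 to 41.9 in the other 3 samples, and Ccnb1 at 6.20 against 28.9 to 35.3. Cdk1 differed by -0.92, Top2a by -0.82, Mki67 by -1.10, Ccnb1 by -1.34 and Cdc20 by -0.72, all with an adjusted p of 1 in edgeR. In S phase, Mcm4 (0.92), Ccne1 (0.65), Mcm2 (0.40), Rrm1 (0.32), Mcm5 (0.31), Pcna (0.27), Cdc6 (0.26) and Ccne2 (-0.43) had the same adjusted p of 1. At the strict limit 25 of 26 G2/M members were below 0 (median -0.51) and 11 of 14 S phase members were above 0 (median 0.47). The cells without Aire were few there, as counted above, and their make-up differed by treatment. Their summed immature mTEC markers were at 6083 and 6305 UPM with PBS and 1745 and 2066 with spermidine. Their myeloid markers, with 9 of 12 detected, were at 180 and 26.7 UPM with PBS and 651.5 and 2160 with spermidine. The part of this make-up in the difference was not tested.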

How the data were processed

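The authors deposited raw UMI counts per gene and hashtag counts per cell for 1 pooled run, and per the file headers the software was Cell Ranger 7.1.0. The build mm10 and the tools bcl2fastq and Seurat are named per the submitters' processing notes. Cells with at least 1000 UMIs, 500 genes and at most 15% mitochondrial UMIs were kept, 8534 of 12139, and hashtags were assigned with HTODemux in Seurat 5.3.0 at a quantile of 0.99, which left 1027 doublets and 2798 negative cells out. No doublet caller was run on RNA. Cells were clustered in scanpy 1.11.5 (2000 variable genes, 30 components, 15 neighbours, Leiden resolution 1) into 16 clusters, joined into 13 classes by marker genes. The name Aire-stage did not follow from the highest mean marker score. In cluster 0 the erythroid list scored 1.646 and the Aire-stage list 0.962. In cluster 1 the erythroid, fibroblast and endothelial lists scored above the Aire-stage list. Aire was at 388 to 480 CPM in cluster 0 and 965 to 1057 in cluster 1. Counts were summed per hashed sample and tested in edgeR 4.0.16 under R 4.3.3 with TMM scaling, its filter for low counts (minimum count 10, total 15) and Benjamini-Hochberg adjustment over all genes at 0.05. DESeq2 1.42.0 was an alternative. The fits were first tested on simulated data. Of log2 changes of 1 in abundant genes, 80% were recovered in transit-amplifying-like cells and 18% in Aire-stage cells. In gated mTECs 31% were, and in the Aire split 63%. Of log2 changes of 2, 100%, 90%, 96% and 100% were recovered in the same order. Changes of the smaller size could thus be missed. The limits of 8 gate UMIs and of 5 different gate genes, the split of the Aire-stage class and the comparison of the effect between classes were added after seeing the data. Values per sample were printed for members called, for the 5 with the smallest p in each direction and for Mki67, Top2a, Ccnb1, Cdk1, Cdc20, Mcm2, Mcm5, Pcna, Ccne1, Ccne2 and Cdc6 (as ranges in the Aire split). The members and lists were chosen with earlier results of these data known. A marker gene of another cell type is not reported here.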

Additional observations from a re-analysis of the deposited data

Results flagged for a closer look

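The effect of spermidine on the summed G2/M members went in opposite directions in 2 classes, lower in both spermidine samples in transit-amplifying-like cells and higher in both in Aire-stage cells, with a log2 difference of -0.81 that was not tested as a sum. Of 39 members tested in both classes, 9 had groups apart in the same way (23.1%), as did 351 of the 12354 genes tested in both (2.84%). Their differences, tested in edgeR, were -2.72 for Aurkb (adjusted p = 0.337), -2.10 for Ube2c (adjusted p = 0.337), -1.70 for Kpna2 (adjusted p = 0.603), -1.55 for Pbk (adjusted p = 0.703) and -1.42 for Cdca8 (adjusted p = 0.347). Those of Cdc20, Birc5, Cenpf and Ccnb1 were -1.33 (edgeR adjusted p = 0.914), -1.13 (edgeR adjusted p = 0.588), -1.06 (edgeR adjusted p = 0.418) and -1.05 (edgeR adjusted p = 0.914). None of these 9 passed the threshold. Members helped to form both classes, and how the border between them shared out cells with G2/M RNA was not tested.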

How the results depend on the processing

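Counts of called genes depended on the settings, and the cause was not tested. In transit-amplifying-like cells, 12 members were among the 468 genes called without the low-count filter and 3 among the 19 called with a replicate block. Without that filter, 4 members were called in gated mTECs, 8 for the spermidine effect by Aire status and 4 between classes. All of these members were lower. In transit-amplifying-like cells, 0 genes became 27 with counts capped at 10 per cell, 17 in DESeq2, 468 without the low-count filter, 3 in cells with at least 8 gate UMIs, and 5 to 97 with 1 replicate left out. Correlations of deviations by replicate number were -0.031, 0.023 and -0.024, which cannot show whether these numbers pair the samples. With a replicate block 19 genes were called in transit-amplifying-like cells, 0 in Aire-stage cells and 0 in gated mTECs. The Aire split without its block gave 5583. In Aire-stage cells DESeq2 called 80, no filter 53 and leaving out 1 replicate 0 to 1. In gated mTECs at least 2 gate UMIs gave 1, at least 8 without ciliated-like cells 1, the cap 464, DESeq2 369, no filter 2124 and leaving out 1 replicate 0 to 20. For the Aire split, 4968 became 2280 at 5 gate UMIs, 1298 at 8, 227 at 8 without ciliated-like cells, 335 with 5 different gate genes and 3159 to 3903 with 1 replicate left out. Its S phase members reversed: Mcm3 to -0.0357, -0.53 and -0.47 and Mcm5 to -0.0005, -0.50 and -0.61 at 8 gate UMIs, 8 without ciliated-like cells and 5 different gate genes, and Rrm2 to -0.0393, Tyms to -0.0205, Ccne2 to -0.0875 and Pclaf to -0.0873 at 8 without ciliated-like cells. For the spermidine effect by Aire status, the counts were 2 with 5 different gate genes, 3 at 5 gate UMIs, 4 at 8, 5 at 8 without ciliated-like cells, 21 in DESeq2, 465 without the filter and 0 to 4 with 1 replicate left out. Between classes they were 5 in DESeq2, 12 without the filter and 1 to 23 with 1 replicate left out. The difference in the S phase to G2/M ratio moved to 0.21 at 8 gate UMIs and 0.19 without ciliated-like cells, with -0.19 to 0.13 when 1 replicate was left out. The share differences then spanned 5.10 to 7.44 points for gated cells and 9.42 to 23.1 for Aire.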
